A study of Caenorhabditis elegans with 2 samples.

Results

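The genome-wide binding profile of tagged C34B4.2 was examined at the microRNA (miRNA) genes of Caenorhabditis elegans. The members were the 261 nuclear genes that Ensembl release 115 annotates with the biotype miRNA, out of 46890 nuclear genes in all. Each gene was given a window from 1000 bp upstream of its start to 200 bp past its end, and peak summits inside that window were taken as its sites. The median window was 1295 bp long, because the median miRNA gene is 95 bp.

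The assay was ChIP-seq, in which DNA crosslinked to a protein is recovered with an antibody and sequenced, and a peak marks a pile-up of fragments with its highest point called the summit. Both samples were whole L1 larvae of mixed sex of strain OP552, which carries the unc-119(tm4063) allele on chromosome III and the transgene wgIs552 expressing C34B4.2 with a C-terminal GFP-FLAG tag. The larvae were collected 6 h after synchronization by starvation that followed bleaching, and the descriptions name an antibody to GFP although the antibody label reads C34B4.2. There were 2 biological replicates of 1 group, so conditions could not be compared. Whole animals were used, so the tissue in which a site was occupied is unknown, and no sample of untagged animals was analysed here.

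The authors deposited lists of 30000 candidate peaks and background regions, 1 list a replicate and 1 for the pooled data, and gave every peak a signal value in their own unit. They also deposited 267 peaks that passed an irreproducible discovery rate (IDR) threshold. IDR scores how well the ranks of peaks repeat between lists, and which lists were compared is not given. The 267 were pooled ranks 1 to 267, with pooled signals from 112 to 868. Of the 8 in miRNA windows, 7 had a summit of each replicate within 100 bp, as had 248 of the other 259. Passing the threshold therefore did not always mean a match in both replicates. Below, "thresholded" means a peak of that list, "strong" a pooled candidate of rank 1 to 3000, and "candidate" any of the 30000. Candidate lists of this kind include background regions, so a candidate of low rank is not evidence of binding. The median candidate signal was 49.6 in the pooled list, 31.1 in replicate 1 and 25.4 in replicate 2. Read depth is unknown, and intervals for shares are Wilson intervals at 95% that cover counting error only.

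miRNA genes are transcribed mostly by RNA polymerase II into long primary transcripts, which the Drosha and Pasha proteins cut into hairpins and Dicer cuts into short duplexes. One strand, the mature miRNA, is loaded into an Argonaute protein and guides it to messages, mainly by pairing of the seed, bases 2 to 8 of the mature RNA. miRNAs that share a seed are treated as a family. In the worm, lin-4 and the let-7 family time larval stages, the mir-35 family is needed in the embryo, and mir-71 is known for the survival of starved L1 larvae. A miRNA gene may stand alone or sit inside an intron of a protein-coding host gene.

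The mature RNAs that the results below turn on are shown 5′ to 3′ with the seed in capitals, read from the RefSeq WBcel235 genome at the annotated positions. The first set is the mir-51 family, the 6 genes with the seed ACCCGUA. It is shown because mir-52 carried the strongest summit of all miRNA windows. The other members had weaker pooled candidates or, at mir-53, none.
mir-51: uACCCGUAgcuccuauccauguu
mir-52: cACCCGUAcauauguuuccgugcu
mir-53: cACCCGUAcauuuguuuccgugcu
mir-54: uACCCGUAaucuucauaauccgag
mir-55: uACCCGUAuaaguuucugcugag
mir-56: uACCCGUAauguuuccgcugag

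The second set shows 3 of the 6 genes with the seed GAGAUCA. Here mir-80 had a thresholded summit while mir-81 and mir-82 had weak candidates. The related mir-58a carried the seed GAGAUCG and was therefore counted apart.
mir-80: uGAGAUCAuuaguugaaagccga
mir-81: uGAGAUCAucgugaaagcuagu
mir-82: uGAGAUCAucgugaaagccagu
mir-58a: uGAGAUCGuucaguacggcaau

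The last set is mir-229, the first gene of a cluster on chromosome III whose windows all held the same strong summit, and the 3′ arm of mir-90. The cluster shares the seed AUGACAC with mir-63 on the X chromosome, and mir-90 shares its seed GAUAUGU with mir-50 and mir-62.
mir-229: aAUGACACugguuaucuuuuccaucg
mir-90: uGAUAUGUuguuugaaugccccu

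Thresholded summits lay at 6 of the 261 miRNA genes (2.30%, 1.06 to 4.92%), and these genes held 8 of the 267 thresholded summits. The genes were mir-52, mir-80, mir-90, mir-354, mir-2 and mir-5549, with mir-52 and mir-354 holding a pair of summits each. Among all 46629 other nuclear genes, taken with the same kind of window, 1.01% had a thresholded summit, just under the interval of the miRNA genes. Windows that reach past the gene end are longer for longer genes, so the shares were also taken with windows of 1 length, 1201 bp around the gene start, an alternative chosen after the values were seen. The miRNA share was then again 2.30%, and that of the other genes 0.841%. Taking the strongest 267 candidates of each replicate instead gave 6 miRNA genes in replicate 1 and 4 in replicate 2 (1.53%, background 1.03%). The 6 genes lay in 6 separate loci, so no thresholded summit was counted for more than 1 miRNA gene.

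**Figure D1:**
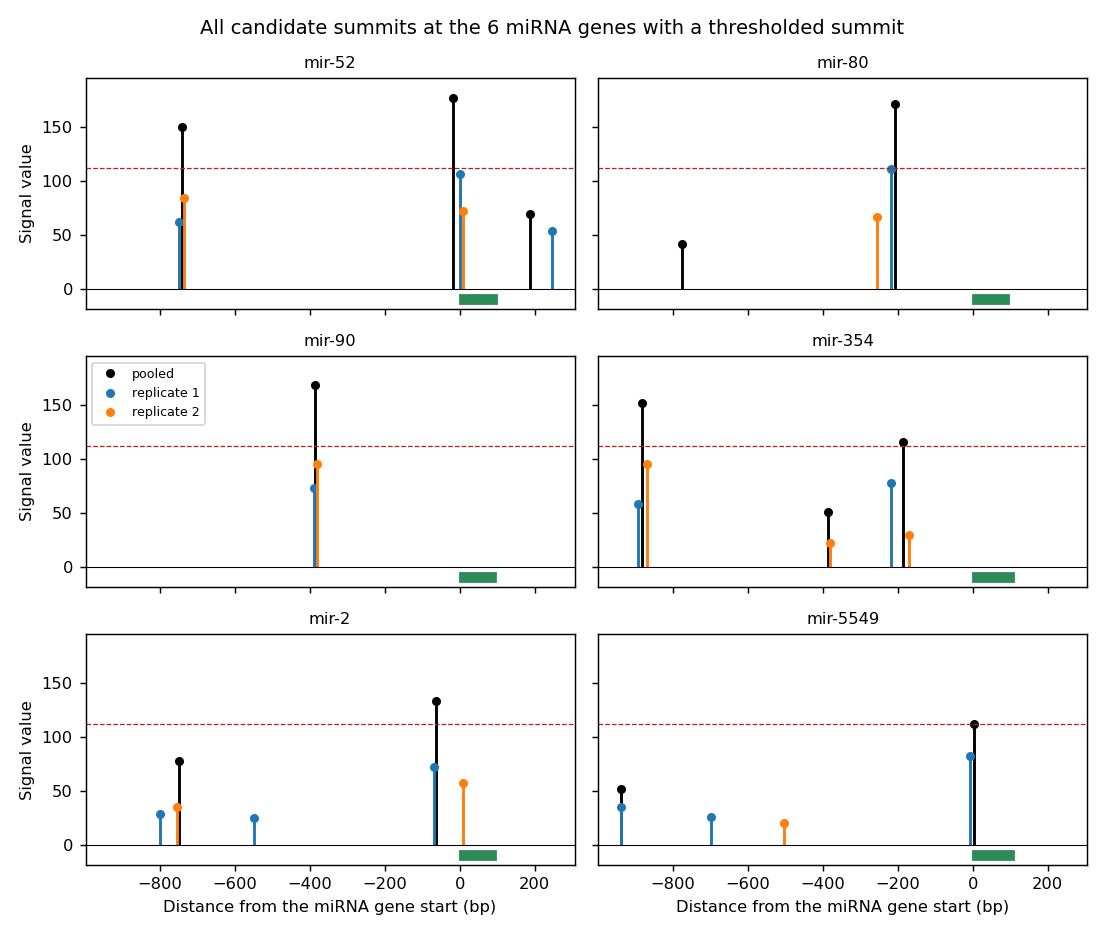
Signal value (vertical axis, authors' units) of every pooled, replicate 1 and replicate 2 candidate summit against its distance from the miRNA gene start in bp (horizontal axis), for the 6 miRNA genes with a thresholded summit. Replicate 1 is drawn 6 bp to the left and replicate 2 6 bp to the right of its position to keep the lines apart, the green box is the annotated miRNA gene and the dashed line the weakest thresholded signal of 112. At mir-52, mir-80, mir-90 and mir-2 a summit of each replicate stands near each thresholded one, and at mir-5549 replicate 2 has none.

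mir-52 (chromosome IV, 14034008 to 14034107, plus strand) lies outside protein-coding genes. Its first thresholded summit, at 14033990, was 18 bp upstream of the gene, with a pooled signal of 177 (rank 101), 107 in replicate 1 and 72.7 in replicate 2. A second thresholded summit lay 742 bp upstream with a pooled signal of 150.4 (rank 139), 62.5 in replicate 1 and 84.6 in replicate 2. Replicate 1 was thus the higher of the pair at the first summit and the lower at the second. A further candidate 188 bp past the start, and beyond the gene end, reached a pooled signal of 70.1 (rank 2825) and was matched in replicate 1 only. The nearest protein-coding start, that of Y37A1B.7, was 9790 bp from the first summit, which places both thresholded summits outside every protein-coding promoter window. Several short ncRNA genes of unstated function are annotated around them, the nearest starting 100 bp from the first summit. The first summit lay inside that gene, which is 149 bp long and on the minus strand. It also lay inside a plus-strand ncRNA gene of 448 bp, 433 bp past its start. Whether the site belongs to mir-52 or to either ncRNA gene was not tested.

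mir-80 (chromosome III, 8865270 to 8865367, minus strand) also lies outside protein-coding genes. The thresholded summit was 206 bp upstream, with a pooled signal of 172 (rank 110), 111 in replicate 1 and 66.5 in replicate 2. A second pooled candidate 774 bp upstream had a signal of 42.1 at rank 25410, near the bottom of the list, and no replicate summit within 100 bp. mir-80 belongs to the mir-58 or bantam-like group, which is abundant in worms and known to act on body size and the TGF-beta pathway.

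mir-90 (chromosome III, 8873987 to 8874084, minus strand) sits 8619 bp from mir-80, inside an intron of K01F9.2 on the same strand. Its summit, 387 bp upstream and within that intron, had a pooled signal of 168 (rank 112), 73.5 in replicate 1 and 95.5 in replicate 2. The replicate summits lay 384 and 387 bp upstream. The start of K01F9.2 was 2657 bp away, so the summit was not in its promoter window.

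mir-5549 (chromosome III, 6971976 to 6972085, minus strand) had its thresholded summit over the gene itself, 3 bp from its start. The pooled signal was 112, at rank 267 the last of the thresholded list. Replicate 1 had 82.4 there, while replicate 2 had no summit within 100 bp and a single weak one (21.0) 510 bp upstream. The same summit was 171 bp upstream of rfc-4, a replication factor C subunit, and 370 bp upstream of eef-1A.1, a translation elongation factor. The site lay between a divergent pair of protein-coding genes, and a site of the miRNA and one of either promoter cannot be told apart.

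The DNA at the summits of mir-52, mir-80, mir-90 and mir-5549, and at the strong summit of the mir-229 cluster, is shown because these are the sites discussed here. Each line holds 101 bases centred on the summit, read 5′ to 3′ on the strand of the miRNA from the WBcel235 (ce11) genome. Capitals in the windows of mir-52, mir-5549 and mir-229 are bases of the annotated mature RNAs. Capitals in those of mir-80 and mir-90 mark the longest run that any pair of the 8 thresholded windows shared. The intervals are chrIV:14033940-14034040 and chrIV:14033216-14033316 for mir-52, chrIII:8865523-8865623 for mir-80, chrIII:8874421-8874521 for mir-90, chrIII:6972032-6972132 for mir-5549 and chrIII:2172454-2172554 for mir-229.
mir-52, first summit: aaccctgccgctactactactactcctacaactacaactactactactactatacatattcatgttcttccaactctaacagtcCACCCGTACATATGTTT
mir-52, second summit: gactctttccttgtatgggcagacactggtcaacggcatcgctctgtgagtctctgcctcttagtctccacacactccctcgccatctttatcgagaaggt
mir-80: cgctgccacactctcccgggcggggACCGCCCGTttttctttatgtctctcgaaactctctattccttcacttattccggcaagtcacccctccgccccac
mir-90: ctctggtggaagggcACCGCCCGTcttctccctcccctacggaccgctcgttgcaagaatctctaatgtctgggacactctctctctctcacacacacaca
mir-5549: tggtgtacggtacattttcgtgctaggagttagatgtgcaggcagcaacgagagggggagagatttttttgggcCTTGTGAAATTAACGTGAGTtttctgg
mir-229: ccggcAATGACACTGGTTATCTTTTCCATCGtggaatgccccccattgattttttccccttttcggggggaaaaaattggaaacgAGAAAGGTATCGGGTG

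The first mir-52 window held 17 bases of the mature RNA and had a GC content of 39.6%, with repeated cta units in its upstream part. Its second window had 52.5% GC, and those of mir-80 and mir-90 had 58.4% and 57.4%. In the mir-229 window the summit fell between the annotated mature arms, of which the window held 42 bases. A search of all 8 thresholded windows on both strands for the 6-mers ACGCAG and GACGCA, which overlap in the letters ACGCA, found ACGCAG in 1 window, the first of mir-354, and GACGCA in 0. Either 6-mer was present in 68 of the 259 other thresholded windows of the same length (26.3%), in 8 of the 131 windows of pooled summits near miRNA genes (6.11%) and in 4.50% of the other pooled windows. Both 6-mers were taken from an earlier description of the study, so these shares are not an independent comparison. Mean GC was 49.1 ± 7.92% (SD, n = 8 windows) at miRNA genes and 48.8 ± 7.50% (SD, n = 259) at the other thresholded summits.

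The other pair of thresholded miRNA genes lay elsewhere and inside hosts on the same strand. Their sites differed in how they related to the host gene.

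mir-2 (chromosome I, 9372768 to 9372865, minus strand) is an abundant miRNA inside an intron of ppfr-1, a regulatory subunit of protein phosphatase 4. Its thresholded summit was 64 bp upstream, with a pooled signal of 133 (rank 174), 72.4 in replicate 1 and 57.3 in replicate 2. A second summit 750 bp upstream was strong (77.8, rank 1490), with 29.3 in replicate 1 and 35.3 in replicate 2. mir-71, 7061 bp away in the same host, had a strong summit 77 bp upstream of it, with a pooled signal of 81.3 (rank 1138), 51.8 in replicate 1 and 46.0 in replicate 2. Both miRNAs of ppfr-1 thus had their strongest summit less than 100 bp upstream of the hairpin, in an intron, with both replicates represented. The start of the ppfr-1 gene lay 17053 bp from the mir-2 summit. The ppfr-1 transcript start nearest to the mir-71 summit, a different position, lay 9487 bp from it.

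mir-354 (chromosome I, 14468382 to 14468491, minus strand) lies inside rps-20, a gene for a protein of the small ribosomal subunit. The stronger summit, 883 bp upstream of mir-354, had a pooled signal of 152 (rank 135), 58.8 in replicate 1 and 95.9 in replicate 2. It lay in the shared upstream region of rps-20 and the divergent gene ekl-4, 126 bp before the start of ekl-4, so it lay in the promoter windows of both. The second, 185 bp upstream of mir-354, fell in a coding exon of rps-20 and had a pooled signal of 116 (rank 250), 78.1 in replicate 1 and 29.4 in replicate 2. In replicate 2 that value ranked 8322 of 30000, so the second summit rested mainly on replicate 1.

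Of the 8 thresholded summits at miRNA genes, 5 (62.5%, 30.6 to 86.3%) lay outside the promoter window of every protein-coding gene, here the stretch reaching from 1000 bp before a transcript start to 200 bp after it. These were both summits of mir-52 and those of mir-80, mir-90 and mir-2. Among the other 259 thresholded summits, 66 (25.5%, 20.6 to 31.1%) lay outside such windows. The intervals overlapped narrowly, and with 8 summits the share at miRNA genes is imprecise.

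The strong candidates added 24 genes, giving 30 miRNA genes (11.5%, 8.17 to 15.9%) against 7.52% of the other nuclear genes. They stood on 27 distinct summits, because neighbouring miRNA genes shared some of them. The replicates differed here. Among the 3000 strongest candidates of each replicate, 33 miRNA genes (12.6%, background 7.83%) had one in replicate 1 and 18 (6.90%, background 7.42%) in replicate 2. With windows of 1 length the pooled share was 10.7% (7.53 to 15.1%) against 4.18%, that of replicate 1 12.3% (8.82 to 16.8%) against 4.36%, and that of replicate 2 6.51% (4.11 to 10.2%) against 4.13%, a background just inside its interval. The strongest below the threshold was over mir-4929 in E01G4.3, with a pooled signal of 104 (rank 338) and 48.5 in replicate 1. That summit also lay 178 bp before a transcript start of E01G4.3, inside its promoter window. No replicate 2 summit lay within 100 bp of the mir-4929 summit, though a replicate 2 summit of 50.9 (rank 438) lay elsewhere in the mir-4929 window. The next strongest lay 626 bp upstream of mir-5595 in a coding exon of nurf-1, a chromatin remodelling factor. It had a pooled signal of 95.5, 47.5 in replicate 1 and 53.8 in replicate 2. It was 197 bp past a transcript start of nurf-1, inside that promoter window. Another, 36 bp past the end of mir-239a on the X chromosome, had a pooled signal of 89.6 and 45.9 in replicate 2. No replicate 1 summit lay within 100 bp of it, though a replicate 1 summit of 48.8 (rank 1572) lay elsewhere in that window. Of the pooled summits at mir-4929, mir-5595 and mir-239a, only the one at mir-5595 was matched within 100 bp in both replicates.

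The mir-229 cluster lies in an intron of gcn-1, which is known for activating an eIF2 kinase under amino acid starvation. Its summit, over mir-229 and 344 to 604 bp upstream of the other members, had a pooled signal of 89.5 (rank 659), 49.3 in replicate 1 and 35.0 in replicate 2. The start of gcn-1 was 20559 bp away. One summit therefore accounts for 4 of the 30 genes with a strong candidate.

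mir-8209 had a summit 82 bp upstream with a pooled signal of 87.1, 37.5 in replicate 1 and 42.2 in replicate 2. mir-58a, in an intron of Y67D8A.2, had one 101 bp upstream with a pooled signal of 76.7 (rank 1614), 41.5 in replicate 1 and 36.4 in replicate 2. mir-228 had one 608 bp upstream with 79.7 in the pooled list, 49.5 in replicate 1 and 26.4 in replicate 2. All of these 3 were represented in both replicates, with the replicates furthest apart at mir-228.

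Several strong candidates were not matched in replicate 2. The summit over mir-41, also in the window of mir-40, had a pooled signal of 69.7 (rank 2923) and 55.2 in replicate 1. The summit over mir-42, in the windows of mir-43 and mir-44 as well, had a pooled signal of 69.6 (rank 2948) and 45.2 in replicate 1. For these clusters of short genes the candidate rested on 1 replicate.

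**Figure D2:**
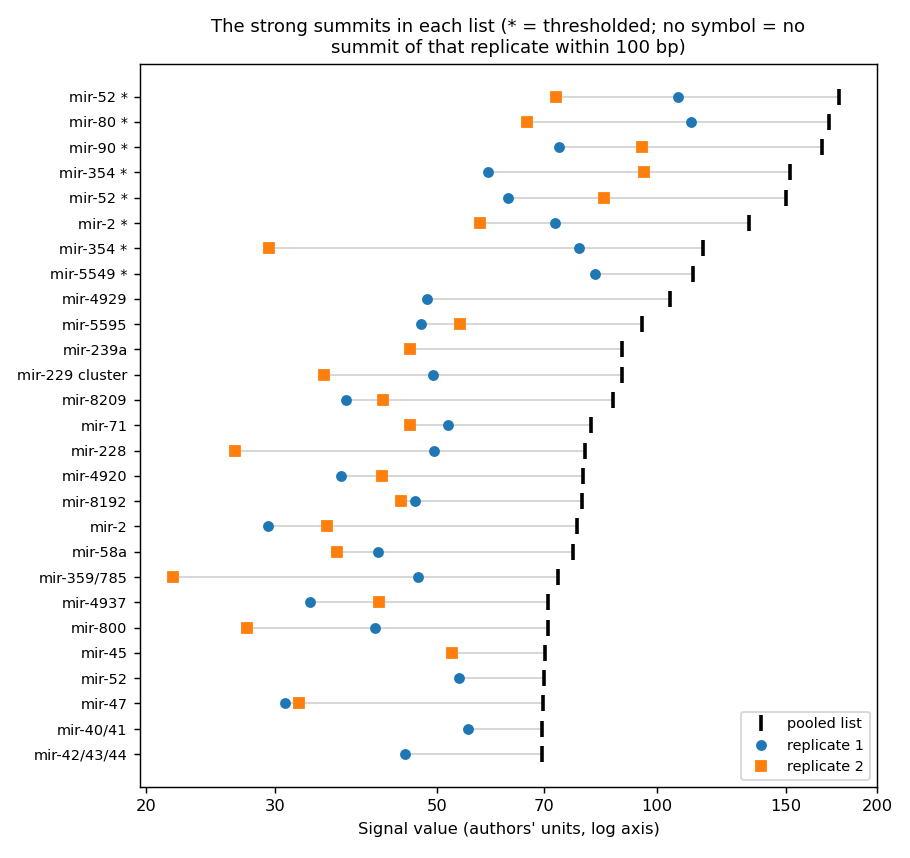
Signal values (horizontal log axis, authors' units) of the 27 distinct summits of pooled rank 1 to 3000 in miRNA windows, 1 line each from strongest to weakest, with the pooled value as a bar and the replicates as points. Pooled values ran from 69.6 to 177, and 20 of the 27 summits had a point for each replicate.

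Among the 27 strong summits, 20 had a summit of each replicate within 100 bp, 5 had one of replicate 1 alone and 2 of replicate 2 alone. Replicate 1 was the higher in 11 of the 20 and replicate 2 in 9. Signals at these sites ran from 29.3 to 111 in replicate 1 and from 21.8 to 95.9 in replicate 2. Across all 131 pooled summits in miRNA windows, 44 were matched in both replicates (33.6%), against 22.9% of the 29869 other pooled summits. Another 16 were matched in neither. No background was taken for those 16 or for the 27 strong summits. Over those 44 the median log2 ratio between replicate 1 and replicate 2 was 0.19 (SD 0.46), with a range from -0.71 to 1.41. In the whole thresholded list the median was 0.02 and the SD 0.54 over 255 summits. Those are the strongest peaks, while the 44 are of all pooled ranks, so the medians are not like for like. The median candidate signal was itself higher in replicate 1 (31.1) than in replicate 2 (25.4).

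Any pooled candidate was present at 123 of the 261 miRNA genes (47.1%, 41.2 to 53.2%), against 46.1% of other nuclear genes, whose windows span whole and often longer genes. With windows of 1 length the shares were 45.6% (39.7 to 51.7%) and 30.4%. A pooled candidate with a summit of both replicates within 100 bp was present at 45 (17.2%, 13.1 to 22.3%), against 15.5%, and with windows of 1 length the shares were 16.9% and 8.24%. Replicate 1 alone placed a candidate at 116 genes and replicate 2 at 134. Counting all lists, 174 genes had some candidate and 87 had none. No share of other nuclear genes was taken for the replicate lists or for all lists together. These counts therefore say nothing particular about miRNA genes. Whether miRNA genes stood above the other nuclear genes in any candidate thus depended on the window, since the background fell with the shorter windows and the miRNA share hardly moved.

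Summits in miRNA windows ranked higher than the rest of the pooled list. Their median rank was 11831 against 15017 for the other 29869, and 20.6% of them were strong against 9.95%. Per length, the windows held 0.440 candidate summits per kb against 0.299 per kb over the nuclear genome. For thresholded summits the values were 26.8 and 2.66 per Mb. These are descriptions with no test, and windows around genes differ from the genome as a whole in many ways that were not matched.

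**Figure D3:**
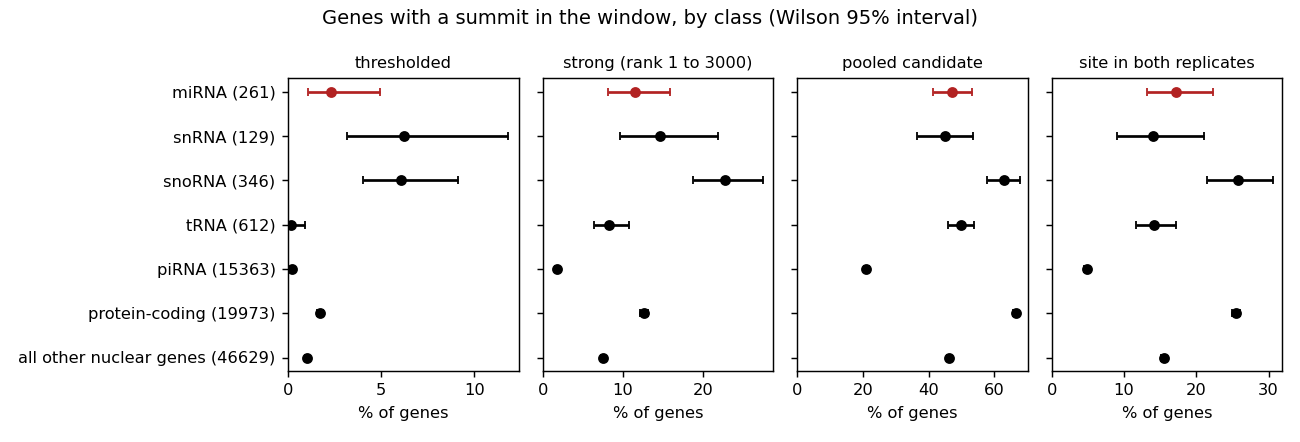
Share of genes (horizontal axes, in %) whose window held a thresholded summit, a strong candidate, any pooled candidate, or a candidate matched in both replicates, for miRNA genes (red) and other gene classes, with Wilson 95% intervals and the number of genes in brackets. miRNA genes had 2.30% with a thresholded summit, below the snRNA and snoRNA genes and above the tRNA and piRNA genes.

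Other short noncoding genes gave a comparison with windows of like length. Of 1087 snRNA, snoRNA and tRNA genes, 2.76% had a thresholded summit, 13.7% a strong one, 53.4% any pooled candidate and 17.8% one matched in both replicates. For miRNA genes each of these shares was slightly lower, with intervals that overlapped. Within that set the classes were unlike each other. Thresholded summits were present at 6.20% of snRNA genes, 6.07% of snoRNA genes and 0.163% of tRNA genes, and at 0.221% of piRNA genes. With windows of 1 length, any pooled candidate was present at 49.5% of the 1087 genes, inside the interval of the miRNA genes. For thresholded summits miRNA genes stood between, with an interval that overlapped those of snRNA and snoRNA genes and not those of tRNA and piRNA genes. Protein-coding genes had 1.69%, with windows of 3227 bp in the median, and 1.32% with windows of 1 length.

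**Figure D4:**
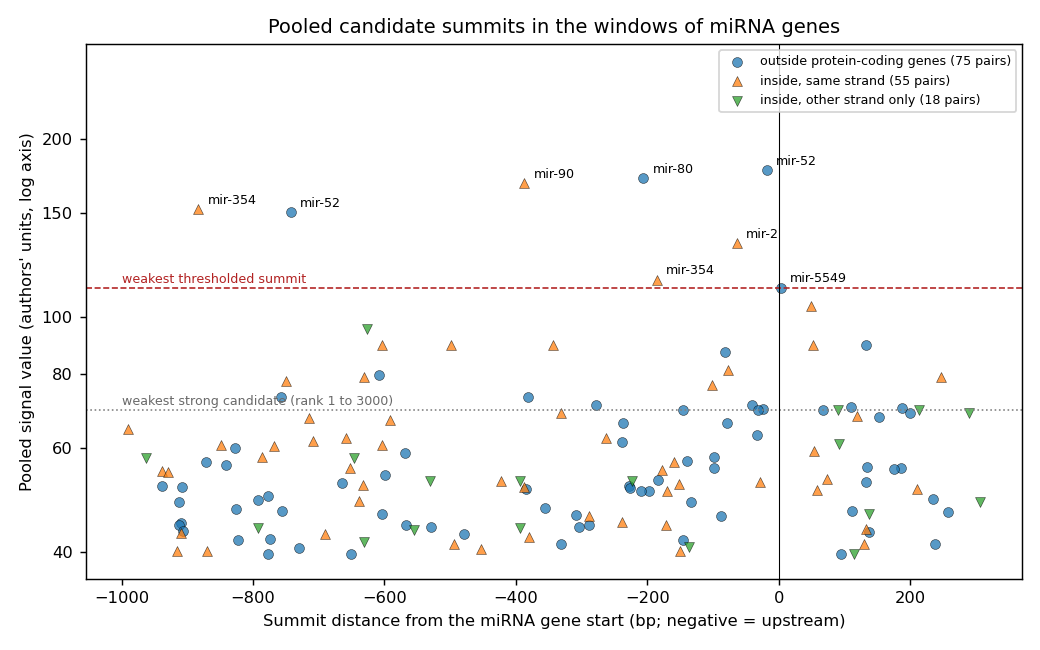
Pooled signal value (vertical log axis, authors' units) against the distance of the summit from the miRNA gene start (horizontal axis, bp, negative upstream) for the 148 pairs of a miRNA gene and a pooled candidate summit. Circles are genes outside protein-coding genes and triangles genes inside one. The 8 thresholded summits are named, and 7 of them lie upstream of the gene.

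The 148 pairs of a gene and a summit comprised 114 upstream of the gene, 10 over it and 24 in the 200 bp past it. Per kb searched, summits numbered 0.383, 0.556, 0.230, 0.479 and 0.536 in successive 200 bp bins from the far to the near end of the upstream region. Over the genes there were 0.395 per kb, and past them 0.460 per kb. Candidates as a whole therefore showed no steady approach to the hairpin. Strong pairs per kb were 0.0192, 0.134, 0.0192, 0.0958 and 0.192 in the same successive bins. They numbered 0.198 per kb over the genes and 0.0958 per kb past them. Of the 34 strong pairs, 10 lay in the 200 bp before the start, 5 over the genes and 7 in the bin from 601 to 800 bp upstream. The 200 bp before the start also held 3 of the 8 thresholded summits. The bins hold few summits each, and clustered genes count a shared summit more than 1 time.

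**Figure D5:**
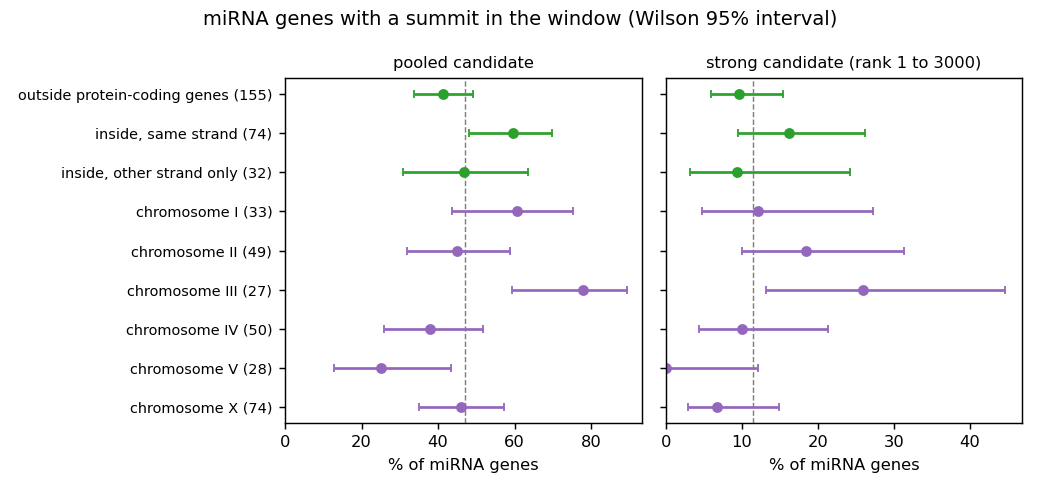
Share of miRNA genes (horizontal axes, in %) with any pooled candidate or with a strong one, by position relative to protein-coding genes (green) and by chromosome (purple), with Wilson 95% intervals. The dashed line is the value for all 261 miRNA genes. Genes inside a host on the same strand reached 59.5% for any candidate, and those of chromosome V 25%.

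Of the 261 miRNA genes, 106 lay inside a protein-coding gene, 74 of them inside a host on the same strand, and 155 lay outside. A pooled candidate was present at 59 of the 106 hosted genes (55.7%, 46.2 to 64.8%) and at 64 of the 155 others (41.3%, 33.8 to 49.2%), a difference of 14.4 percentage points. For hosts on the same strand the count was 44 of 74 (59.5%), and for hosts only on the other strand 15 of 32 (46.9%). The difference depended on the list. In replicate 1 the shares were 50% and 40.6%, and in replicate 2 they were 52.8% and 50.3%, 2.51 points apart. Thresholded summits occurred at 3 hosted genes (mir-90, mir-354 and mir-2) and at 3 outside (mir-52, mir-80 and mir-5549). Strong ones occurred at 15 genes of each kind.

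miRNA genes are spread unevenly, with 74 of them on the X chromosome. No thresholded summit lay at an X-linked miRNA gene (0 of 74, up to 4.93%), and 6 of 187 autosomal ones had one (3.21%). Among other nuclear genes the shares were 0.303% on X and 1.12% on autosomes. Any pooled candidate was about as frequent at miRNA genes on X (45.9%) as on autosomes (47.6%). Other nuclear genes had similar shares, 48.6% on X and 45.7% on autosomes. With windows of 1 length the shares on X were 44.6% for miRNA genes and 30.6% for other genes. Strong candidates were at 6.76% of miRNA genes on X and 13.4% on autosomes, with overlapping intervals, against 5.63% and 7.80% of other nuclear genes. Chromosome III had 3 of the 6 genes with a thresholded summit, and 21 of its 27 miRNA genes had a pooled candidate (77.8%, 59.2 to 89.4%) against 68.6% of its other genes, or 42.9% with windows of 1 length. On chromosome V 7 of 28 had one (25%, 12.7 to 43.4%) against 55.2% of its other genes, or 33.0% with windows of 1 length, which lies inside the interval. A strong one was present at 0 of 28, with an interval up to 12.1% that covers the 7.68% of its other genes.

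Seed families are small, so their counts are descriptions only. Any pooled candidate was present at 47.1% of all miRNA genes and 46.1% of other nuclear genes. In the mir-51 family, whose seed is shown above, 5 of 6 genes had a pooled candidate, and mir-52 alone had a thresholded one. mir-51 had its best candidate 237 bp upstream at a pooled signal of 66.2 (rank 3899). mir-56 had 68.8 at rank 3139. mir-54 and mir-55 shared a candidate of 52.6 at rank 11831, which also lay in the window of mir-56. mir-53 had no pooled candidate and a single replicate 1 candidate of 34.3.

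Among the 6 genes with the seed GAGAUCA, 3 had a pooled candidate, where 47.1% of all miRNA genes had one. mir-82 had 52.5 at rank 11986, 29 bp upstream, and mir-81 had 48.6 at rank 16165, both far under the 172 of mir-80. All 5 genes with the seed AUGACAC had a pooled candidate, 4 of them through the shared gcn-1 summit. In the mir-35 family 3 of 8 genes had a pooled candidate, namely mir-40, mir-41 and mir-42, and mir-35 to mir-39 had no summit in any list. Some members lie side by side and share windows, such as mir-35 to mir-41 on chromosome II and mir-54 to mir-56 on X, so genes of a family are not independent.

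The miRNAs that time larval development had weak candidates or none. let-7, annotated as a gene of 1732 bp, had no summit in any list, and neither had mir-84. mir-48 had no pooled candidate and 30.6 in replicate 2. mir-241 had a candidate 33 bp upstream with a pooled signal of 63.0 (rank 5095), 38.9 in replicate 1 and 23.7 in replicate 2. lin-4 had one 177 bp upstream with 55.0 (rank 9797), 30.5 in replicate 1 and 21.5 in replicate 2. No member of this group reached rank 3000, but only 11.5% of all miRNA genes and 7.52% of other nuclear genes did. The group is too small for its counts to say anything particular about timing miRNAs.

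Of 33 miRNAs chosen as well studied, 3 had a thresholded summit (mir-52, mir-80 and mir-2; 9.09%, 3.14 to 23.6%), 9 a strong one (27.3%, 15.1 to 44.2%) and 21 any pooled candidate (63.6%, 46.6 to 77.8%). Over all miRNA genes the shares were 2.30%, 11.5% and 47.1%. Some of the 33 share a summit, and the list was drawn up with earlier results known. It includes seed relatives of mir-52, mir-80 and mir-2, and the shares over all miRNA genes include the 33. The higher shares of the list are therefore no evidence about well-studied miRNAs. Among its 9 genes with a strong candidate, mir-40 to mir-43 rested on shared summits not matched in replicate 2. mir-1, a muscle miRNA, had a candidate of 57.0 at rank 8319, 139 bp upstream. mir-34, known from the DNA damage response, had 57.8 at rank 7826, 99 bp upstream. mir-124, a neuronal miRNA, had 53.2 at rank 11301. lsy-6, which sets left-right asymmetry of a taste neuron pair, had no summit in any list, and mir-61 and mir-250 shared a single replicate 2 candidate of 22.7. The pooled values of mir-1, mir-34 and mir-124 lay slightly above the median of 49.6 of all candidates.

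The protein-coding genes of the miRNA pathway formed a second, smaller group. Of 30 genes listed, 29 matched the annotation, and the promoter window defined above was used for them. Thresholded summits were present at 3 (10.3%, 3.58 to 26.4%), where 1.38% of all protein-coding genes had one. A strong candidate was present at 5 (17.2%, background 6.34%) and any pooled candidate at 24 (82.8%, background 38.1%). The list was drawn up with earlier results in view, in which the nhl-2 peak already appeared, so these shares are descriptions.

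All 3 thresholded pathway genes act at the silencing step, the largest role in the list, and no test of the roles was made. nhl-2, a TRIM-NHL protein that enhances miRNA silencing, had the strongest summit, 823 bp upstream with a pooled signal of 357 (rank 20), 184 in replicate 1 and 174 in replicate 2, in a promoter shared with tag-340. vig-1, a component of the silencing complex, had one 431 bp upstream with a pooled signal of 147 (rank 146), 66.6 in replicate 1 and 75.8 in replicate 2. ain-1, a GW182-type partner of the Argonautes, had one 973 bp upstream with a pooled signal of 142 (rank 159), 26.0 in replicate 1 and 69.2 in replicate 2. The replicates were close at nhl-2 and vig-1, while at ain-1 the replicate 1 value ranked 26418.

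The processing genes had lower values. pash-1, the partner of Drosha, had a strong candidate 75 bp upstream with a pooled signal of 77.1 (rank 1568), 46.9 in replicate 1 and 33.1 in replicate 2. drsh-1 had 63.9 at rank 4713, and dcr-1 had no pooled candidate. The Argonaute genes alg-1 and alg-2 had 60.9 at rank 6074 and 58.3 at rank 7555. hrpk-1, an RNA-binding partner of the silencing complex, had 70.5 at rank 2706 with a match in replicate 2 only. Among heterochronic targets and regulators, lin-28 had 69.3 at rank 3009, 75 bp upstream, and lin-14 had 64.9 at rank 4331. Both were matched in each replicate. lin-28 had 25.2 in replicate 1 (rank 28373, near the lowest of that list, 24.7) and 41.6 in replicate 2 (rank 1225). lin-14 had 32.4 in replicate 1 (rank 12970) and 24.0 in replicate 2 (rank 18388). The other 4 of the 6, lin-41, hbl-1, daf-12 and lin-42, had pooled ranks from 6668 to 16205 and no match in replicate 2.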

How the data were processed

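ChIP-seq peak lists of 2 biological replicates were analysed as the authors deposited them, in the ce11 build that the accompanying descriptions name. The ce10 lists were not used. For every peak the authors gave a signal and a summit offset counted in bases. A control library is named behind each candidate list. How reads were aligned, peaks called, the IDR threshold set and the signal scaled is not given in the sources used here. Signals served only to rank and describe peaks.

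Genes came from Ensembl release 115 (WBcel235), and all 261 miRNA genes matched a RefSeq symbol. A site was matched in a replicate when a summit of it lay within 100 bp of the pooled summit. No statistical test was made: there was 1 group, and shares were given with Wilson intervals. Shares of other nuclear genes gave the background. Named genes were those with a thresholded summit, those of the 20 strongest miRNA summits, and a list of well-studied miRNAs and pathway genes with their neighbours. The other mir-51 and mir-35 family genes, and pathway genes without a strong candidate, were named as list members. The members and lists were chosen with earlier results of these data known. Some sequences are not reported here. Code was tested on simulated data. Python 3.11.15, numpy 2.4.6, pandas 2.3.3, scipy 1.17.1 and matplotlib 3.10.9 were used.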

Additional observations from a re-analysis of the deposited data

How the results depend on the processing

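No paired analysis was possible because there is 1 group of 2 replicates. Within 200 bp of the gene, pooled candidates were at 61 miRNA genes, strong ones at 19 and sites of both replicates at 22, with 27.4% of hosted and 20.6% of other miRNA genes. From 500 bp upstream those shares were 40.6% and 29.7%, and 1 pathway gene kept a thresholded summit. From 2000 bp they were 69.8% and 51%. Counting any peak overlap gave 65.1% of hosted genes. Keeping only the stronger 133 thresholded or 15000 pooled summits left 3 genes with a thresholded and 81 with a pooled candidate. Ranks up to 1000 left 14 strong genes, and matches within 50 bp left 24 genes with a site of both replicates. With either replicate's list alone, counts ran from 4 to 6 (thresholded), 18 to 33 (strong), 116 to 134 (pooled) and 2 to 3 (pathway), and shares from 50% to 52.8% (hosted) and 40.6% to 50.3% (outside). The drop to 18 came without replicate 1. Windows set by the gene start alone, chosen after seeing the data, gave 119 pooled and 6 thresholded genes, while the background fell from 46.1% to 30.4% (pooled) and from 7.52% to 4.18% (strong). The other values stayed within 1.5 times the count or inside the interval. Read depth is unknown, so no limit of detection could be given.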

Other observations

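The windows of mir-80 and mir-90, which lie 8619 bp apart, shared a run of 9 letters, ACGGGCGGT on the plus strand. It was the longest among the 28 pairs of thresholded windows of 101 bases, of which the others shared 5 to 8 letters, with both strands searched. The run was chosen after the windows were seen. It was present in 6 of the 267 thresholded windows (2.25%), these included, and in 40 of the 30000 pooled windows (0.133%).

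Every 36-base word within 100 bp of the 27 strong summits occurred once in the genome, including the cta repeats beside mir-52. The read length is not given in the sources used here, so this describes the sequence and not the mapping.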
